A study of Caenorhabditis elegans with 2 samples.

Results

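The genes described here are the 6 annotated members of the Sp and Krüppel-like factor family in Caenorhabditis elegans, out of 19973 protein-coding genes on the nuclear chromosomes (Ensembl annotation of ce11). These are klf-1, klf-2 and klf-3 and the genes sptf-1, sptf-2 and sptf-3. They were chosen by name, and every peak was taken whose summit lay inside a member or within 5 kb upstream of its 5′ end. One of the encoded proteins, SPTF-2, was mapped by ChIP-seq, in which DNA bound to a protein is precipitated from sheared chromatin and sequenced, and peaks mark where reads pile up. The series has 1 group with 2 biological replicates: whole young adults of strain OP769, both sexes pooled, collected at 64.5 h after synchronization as starved L1 larvae. The strain carries the unc-119(tm4063) allele and the transgene wgls769, which holds sptf-2::TY1::EGFP::3xFLAG together with unc-119(+). Precipitation was through the GFP tag at the C terminus of SPTF-2, although the antibody field of the labels names sptf-2. The labels do not give the extent, copy number or insertion site of the transgene, nor whether the native sptf-2 gene was intact, and whole worms mix all tissues.

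Sp and Krüppel-like factors are transcription factors with a run of C2H2 zinc fingers at the C terminus. In mammals the Sp proteins bind GC boxes (core GGGCGG) in many promoters, and the Krüppel-like proteins bind GC boxes and the related CACCC box. Genes of transcription factors can themselves be bound by members of the same family, including their own product. In C. elegans, SPTF-3 activates genes of programmed cell death, and KLF-1 and KLF-3 act in fat metabolism.

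The members differ in length and, except for sptf-1, share an array of 3 fingers. The annotated coding sequences encode 298 residues for sptf-1, 166 for sptf-2, 412 for sptf-3, 497 for klf-1, 299 for klf-2 and 315 for klf-3, taking the transcript with most fingers. A pattern for C2H2 fingers matched 3 times in each member except sptf-1, where it matched 1 time. Identity was taken over 42 residues, from the second cysteine to the first histidine of each of the 3 fingers, both included. The pattern itself fixes these cysteines and histidines, and sptf-1 was not compared. Over these residues SPTF-2 was 71.4% identical to KLF-2, 69.0% to SPTF-3, 69.0% to KLF-1 and 61.9% to KLF-3. The Krüppel-like members were closer to each other, with 90.5% identity between KLF-1 and KLF-2, 81.0% between KLF-1 and KLF-3 and 78.6% between KLF-2 and KLF-3.

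There were 4 peak lists. The optimal list held 407 peaks that, by the deposited description, passed a threshold on reproducibility between the replicates. Their signal values were those of the 407 strongest pooled peaks. An optimal peak is therefore not always strong, or called separately, in each replicate. The pooled list and the lists of replicate 1 and replicate 2 held 30000 peaks each, of which most had weak support, with a median deposited q-value of 0.762 for pooled peaks, 0.707 for replicate 1 and 0.726 for replicate 2. The highest q-value in the optimal list was 0.0350. Signal values are on the scale of the submitters' peak caller and differ in level between lists, so ranks by signal are used to set lists side by side, with rank 1 the strongest. The depth of sequencing is unknown.

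Of the 6 members, 2 had an optimal summit, sptf-2 with 3 and klf-1 with 1. Under the same rule 3.64% of all protein-coding genes had one (728 genes). The tagged gene is one of the 2, so among the other 5 members the count was 1. All 6 members had a pooled summit, as did 85.7% of all protein-coding genes. All 6 also had a summit in replicate 1 and in replicate 2, against 86.5% and 87.4% of all protein-coding genes. The presence of a peak in these longer lists therefore does not set the members apart. The regions searched were 7.16 kb for sptf-2 and 8.15 to 11.8 kb for the other members. The median over all protein-coding genes was 7.03 kb. Longer regions have more room for a summit, and no share of genes given here was adjusted for length.

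**Figure D1:**
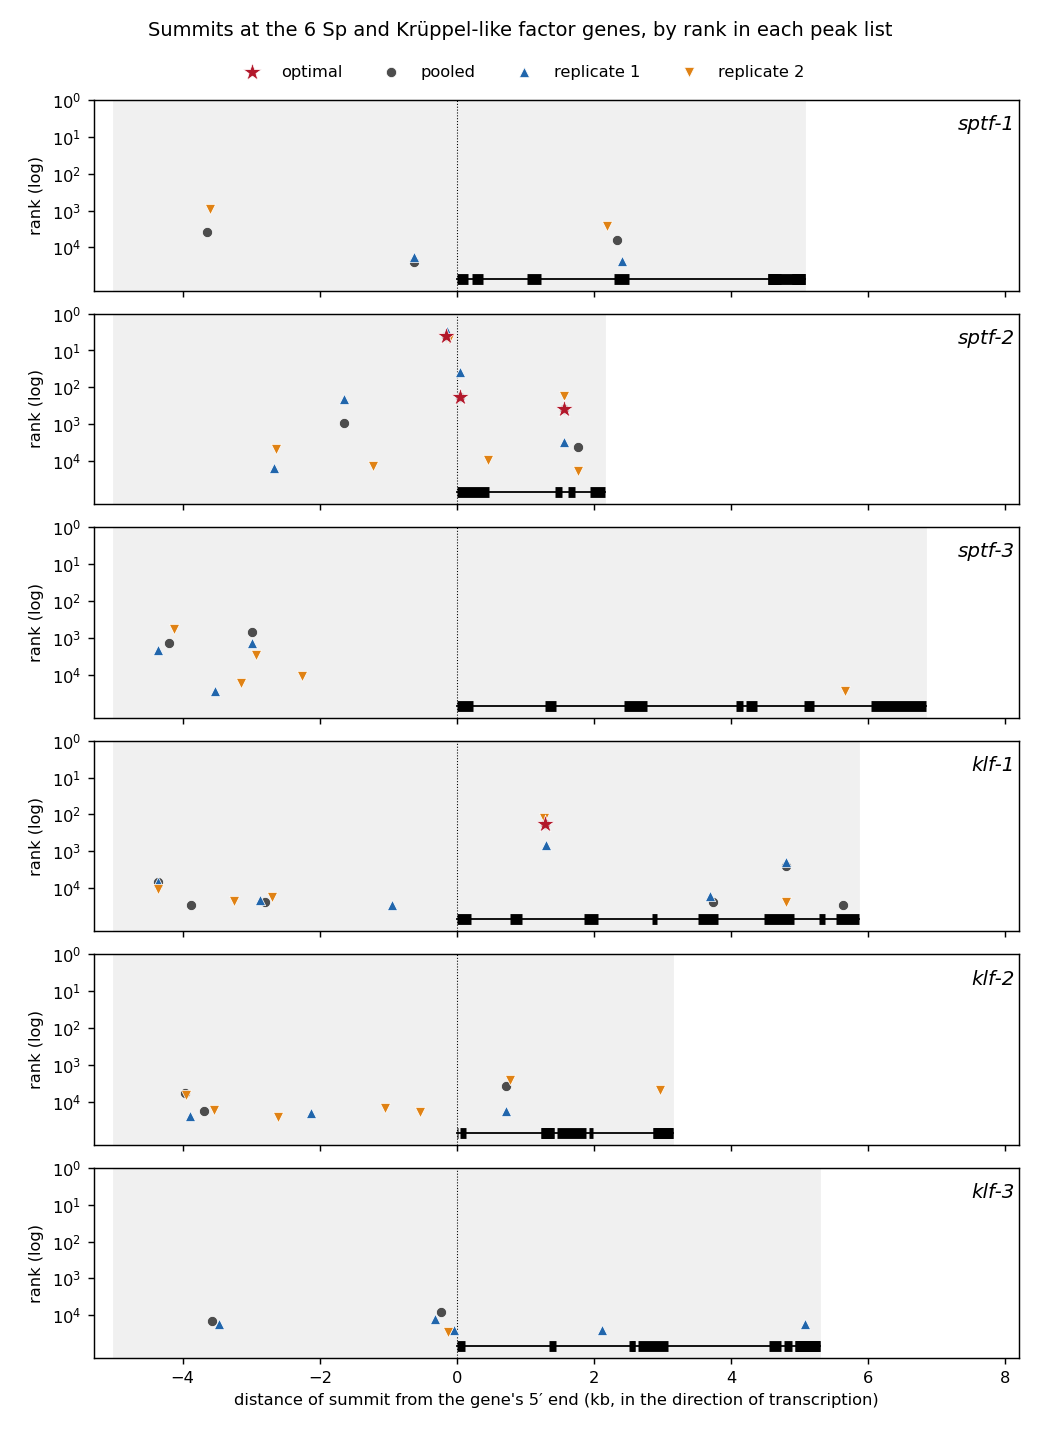
Summits at the 6 genes, by distance from the gene's 5′ end (x axis, kb, in the direction of transcription) and rank by signal (y axis, log scale, rank 1 at the top) in the optimal, pooled, replicate 1 and replicate 2 lists. Grey marks the gene and 5 kb upstream and black bars are exons. Each optimal summit is also a pooled summit and covers its marker. The stars stand at sptf-2 (ranks 4, 180 and 376) and klf-1 (rank 185).

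The tagged gene, sptf-2 (WBGene00011926), lies on chromosome II from 8625459 to 8627622 on the plus strand (ce11). Its strongest peak covered chrII:8625118-8625493, across the annotated start, with the summit at 8625306, 153 bp before it. The signal value was 399 in the optimal list, with a q-value of 0.00952, and 4 genes of the 19973 had a stronger pooled peak under the same rule. The summit was at 8625307 in replicate 1 (signal 221, rank 3) and at 8625339 in replicate 2 (signal 183, rank 5). Both replicates thus placed it among their 5 strongest peaks, with summits 1 bp and 33 bp from the pooled one.

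The 300 bases around this summit are shown because this is the strongest peak of the family. They are the plus strand of chrII:8625156-8625455, from RefSeq's WBcel235 sequence, which is the same assembly as ce11. Capitals mark matches on either strand to the GC box (GGGCGG), to the shorter box (CACCC) or to a GA repeat (GAGAGA).
sptf-2 promoter summit: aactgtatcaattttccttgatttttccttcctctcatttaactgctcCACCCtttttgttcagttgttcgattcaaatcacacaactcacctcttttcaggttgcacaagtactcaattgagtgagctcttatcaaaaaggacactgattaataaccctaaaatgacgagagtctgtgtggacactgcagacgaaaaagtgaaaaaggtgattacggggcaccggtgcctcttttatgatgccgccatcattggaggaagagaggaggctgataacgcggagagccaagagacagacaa
No GGGCGG was in this window, and the summit also had none within 200 bp. A single CACCC started 102 bp before the summit. CACCC was in 34.2% of windows of this width at optimal summits, 23.9% at pooled summits and 18.4% at starts of protein-coding genes, and the GC content of the window was 43%, against a median of 44.7% over optimal summits.

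A second optimal peak, chrII:8625318-8625693, overlapped the first by 176 bp. Its summit at 8625506 lay 47 bp after the start, in the untranslated part of the first exon, with a signal of 110 and rank 180. Replicate 1 called it as a separate peak, with a signal of 91.1 and rank 39, and its summit was 4 bp from the pooled one. Replicate 2 had no separate summit there, and its promoter peak at rank 5 overlapped the position, with the summit 167 bp away. A GGGCGG on the opposite strand started 133 bp after this summit, more than 100 bp away.

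The third optimal peak of sptf-2 lay over the exons that encode its zinc fingers. It covered chrII:8626826-8627201, with its summit at 8627014, a signal of 92.1 and rank 376. The summit was in intron 2 of 3, which is 84 bp long and interrupts the codons of finger 1 (8626931 to 8627083). Finger 2 is encoded from 8627105 to 8627173, in exon 3 and within the peak, and finger 3 from 8627406 to 8627471, in exon 4 and outside it. The replicates differed, with rank 169 in replicate 2 (signal 55.9) and rank 3042 in replicate 1 (signal 35.2, q-value 0.234), although their summits were within 6 bp.

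The 300 bases of this peak, the plus strand of chrII:8626864-8627163, hold the only GC box within 100 bp of any of the 4 optimal summits at members. It is marked in capitals as CCGCCC, the opposite strand of GGGCGG.
sptf-2 intron 2 summit: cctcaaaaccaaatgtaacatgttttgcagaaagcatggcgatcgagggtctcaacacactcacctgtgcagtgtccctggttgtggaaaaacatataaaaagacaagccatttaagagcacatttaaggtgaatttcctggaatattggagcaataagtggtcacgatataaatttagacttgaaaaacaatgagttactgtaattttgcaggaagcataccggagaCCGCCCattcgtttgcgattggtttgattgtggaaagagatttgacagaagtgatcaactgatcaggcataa
The match starts 78 bp after the summit, in coding exon 3, just before the codons of finger 2. Within 100 bp of the summit, GGGCGG was at 12.3% of all optimal summits, 5.46% of pooled summits and 5.16% of protein-coding starts.

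Weaker sptf-2 summits were less alike between the replicates. A pooled summit 1655 bp upstream, at 8623804 (signal 75.6, rank 912), matched a peak of rank 203 in replicate 1 and none in replicate 2. It lay 308 bp from the start of T22C8.4, the divergent neighbour. The pooled summit at 8627224, in intron 3, had rank 4128. Its nearest peaks were of rank 3042 in replicate 1, which is the one in intron 2, and of rank 18142 in replicate 2, at the same position. With 3 optimal summits, sptf-2 was one of 3 protein-coding genes with 3 or more (0.015% of all). The others were T22C8.4, whose 5 kb upstream took in the same 3 summits, and pxn-1, which had 4.

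**Figure D2:**
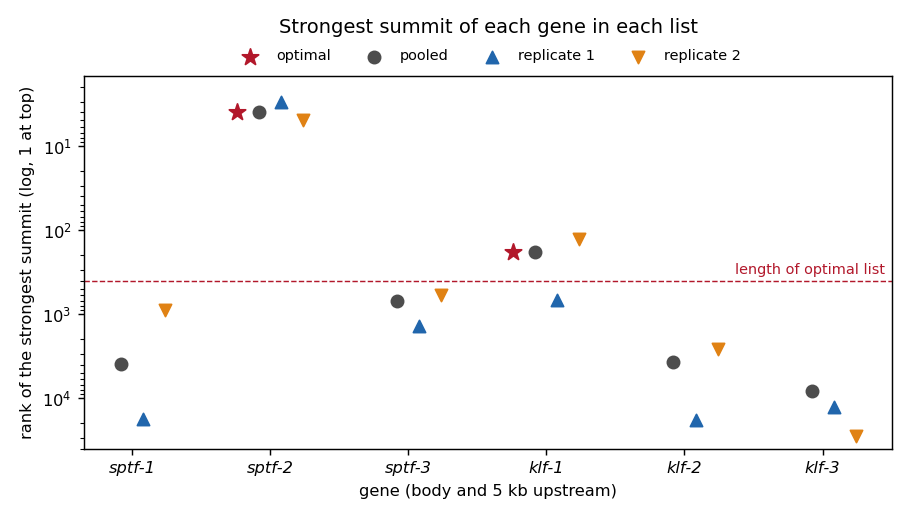
Rank by signal of the strongest summit of each gene (body and 5 kb upstream) in the optimal, pooled, replicate 1 and replicate 2 lists (y axis, log scale, rank 1 at the top). The dashed line is the length of the optimal list, 407. All points of sptf-2 are at ranks 3 to 5, klf-1 is above the line in the pooled list (185) and replicate 2 (128) and below it in replicate 1 (683), and the other genes are below it in every list.

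Peaks were also strong and close together over the flanks of sptf-2. Of the 1000 strongest pooled peaks, 12 lay within 60 kb of the gene, all of them from 22.7 kb before its 5′ end to 6.64 kb after it. Of the 12, 8 lay outside the gene and its 5 kb upstream. Within 20 kb of sptf-2 there were 8 of the 1000, and 0.0451% of protein-coding genes, 9 in all, had as many or more. These 9 were sptf-2 and 8 neighbours on the same stretch, suf-1, F28C6.8, F28C6.9, F28C6.10, T22C8.1, chhy-1, T22C8.3 and T22C8.4. Apart from suf-1, which also had 8, the neighbours had more than sptf-2. The count was 12 for T22C8.1, chhy-1, T22C8.3 and T22C8.4, 10 for F28C6.9, and 9 for F28C6.8 and F28C6.10. Around the other members the count within 20 kb was 1 for sptf-3, klf-1 and klf-2 and 0 for sptf-1 and klf-3. These counts include each gene and its upstream region. They take in the sptf-2 peaks at ranks 4, 180, 376 and 912, the sptf-3 peak at rank 704 and the klf-1 peak at rank 185.

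Both replicates had this cluster. The pooled list had no summit between those at 16.6 kb and 1.7 kb before the 5′ end, but both replicates had strong peaks there. Examples are rank 85 in replicate 1, 10.4 kb before the 5′ end, and rank 150 in replicate 2, 8.46 kb before it. Each was weaker in the other replicate. The nearest summits were of rank 1837 in replicate 2, 10.2 kb before the 5′ end, and of rank 12145 in replicate 1, 8.47 kb before it. Within 20 kb of sptf-2, 8 of the 1000 strongest peaks of replicate 1 and 8 of those of replicate 2 were found. The density of pooled summits there was 5.22 per 10 kb, against 2.99 for the whole genome, with 7.12 in replicate 1 and 4.27 in replicate 2. As dense or denser was 3.52% of protein-coding genes in the pooled list. The density around the other members was 4.87 for klf-2, 4.14 for klf-1, 3.31 for klf-3, 2.56 for sptf-3 and 2.22 for sptf-1. The order differed in replicate 2, where klf-2 had 6.03, sptf-3 had 4.70 and klf-1 had 4.58, all above sptf-2. In replicate 1 sptf-2 was the highest, and the next was klf-2 with 5.33. The median signal of the pooled summits within 20 kb was 51.3 for sptf-2, 53.4 for sptf-3, 46.7 for sptf-1, 40.3 for klf-3, 36.8 for klf-2 and 33.5 for klf-1, against 37.5 for the whole list. The sptf-2 gene with its flanks thus held more of the 1000 strongest peaks than the other members with theirs, while its median was not the highest.

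Several of the flanking peaks lay close to the starts of other genes. The pooled peaks at ranks 34 and 94 (signals 172 and 131) were at rpl-26, a ribosomal protein gene that hosts a snoRNA gene, 22.7 and 22.5 kb before sptf-2. The peaks at ranks 42 and 555 (signals 163 and 84.2) were in cutl-12, beside a tRNA gene, 6.44 and 6.64 kb after the 5′ end of sptf-2. The peak at rank 465 (signal 87.9) was 16 bp from the start of suf-1. This and the other flanking peaks among the 1000 strongest had no tRNA, snoRNA or snRNA gene start within 500 bp. Reads of the transgene and of the native locus cannot be told apart in these lists, and the part of extra transgene copies in the sptf-2 peaks and their flanks was not tested. At unc-119, the other gene of the transgene, the optimal, pooled and replicate 2 lists had no summit inside the gene or within 5 kb upstream, and replicate 1 had 1, at rank 29419. The labels do not give which unc-119 sequence the transgene holds, and the strain carries the unc-119(tm4063) allele. These values therefore cannot show how many copies of the transgene were present.

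**Figure D3:**
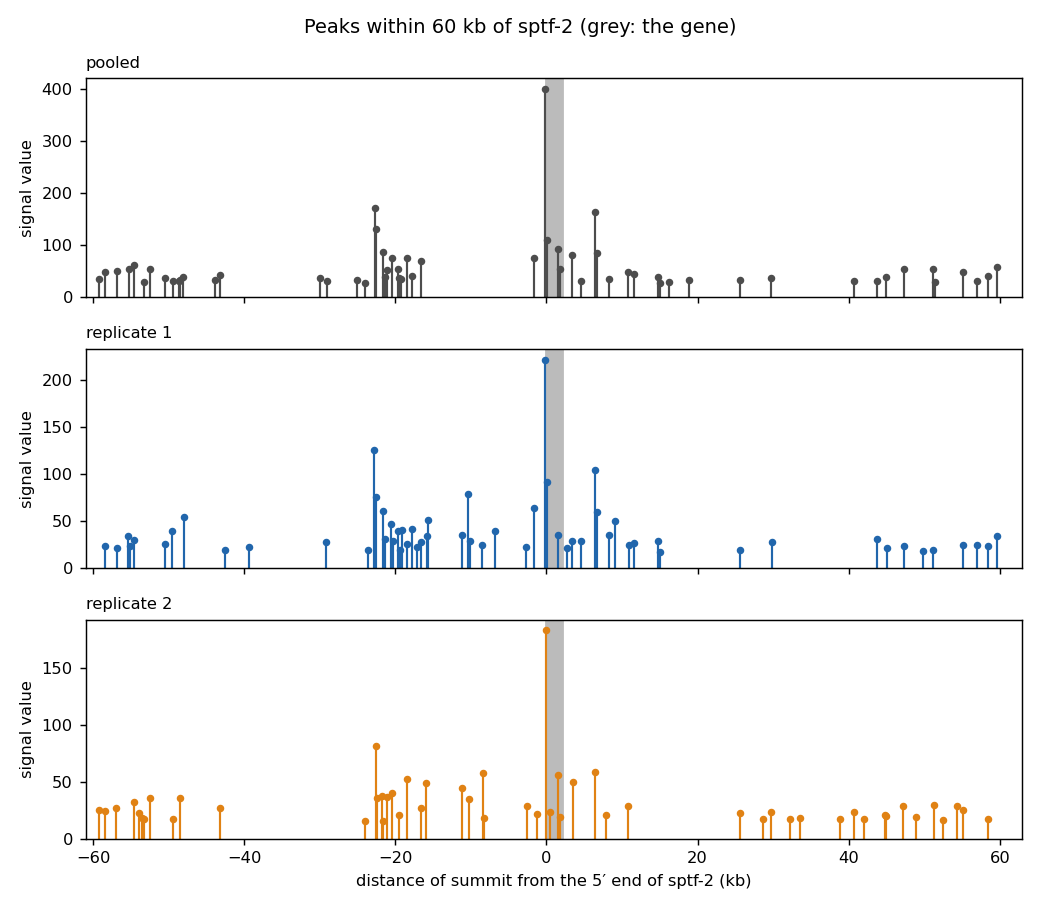
Signal value (y axis, on the caller's scale of each list) of every peak within 60 kb of sptf-2, by distance from its 5′ end (x axis, kb), in the pooled, replicate 1 and replicate 2 lists. Grey marks the gene. The highest peak in each panel is at the promoter (399, 221 and 183). In the pooled list strong peaks lie between 22.7 kb before and 6.64 kb after the 5′ end. That list has no summit between those at 16.6 kb and 1.7 kb before the 5′ end, where both replicates have peaks.

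**Figure D4:**
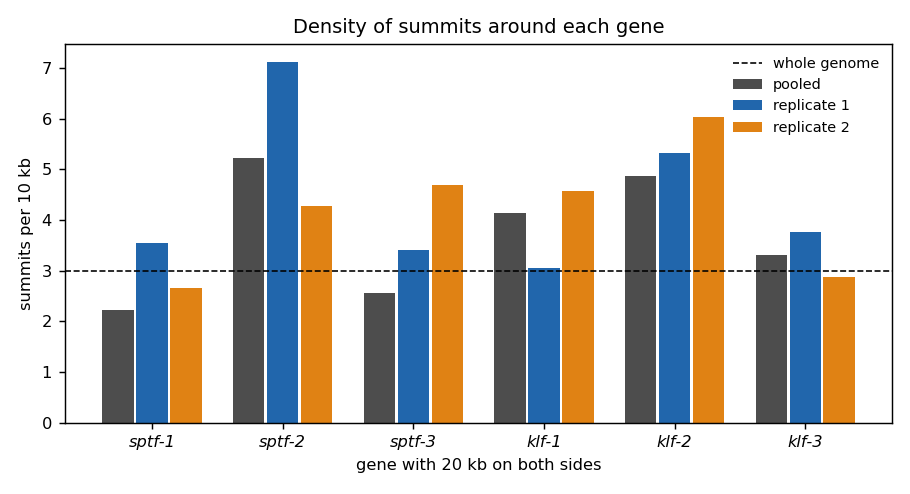
Summits per 10 kb in each gene with 20 kb on both sides (y axis), in the pooled, replicate 1 and replicate 2 lists. The dashed line is the whole genome, 2.99 in each list. Replicate 1 has its highest bar at sptf-2 (7.12) and replicate 2 at klf-2 (6.03).

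The other optimal summit was in klf-1 (WBGene00018990), chromosome III from 2874818 to 2880676, plus strand, a Krüppel-like gene with a role in fat storage. The peak covered chrIII:2875909-2876284, with its summit at 2876097, in intron 2 of 7 (913 bp long) and 1279 bp after the start. Its signal was 109.8, its rank 185 and its q-value 0.0190. Replicate 2 had it at rank 128 (signal 58.9, q-value 0.0196) and replicate 1 at rank 683 (signal 48.8, q-value 0.0212), with summits 7 and 20 bp from the pooled one. Both replicates therefore listed it at nearly the same position, and it was among the 407 strongest in replicate 2 but not in replicate 1. A stronger pooled peak was found under the same rule at 1.73% of all protein-coding genes, 345 in number. The klf-1 region was 10.9 kb long, against a median of 7.03 kb, and length was not adjusted for.

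The plus strand of chrIII:2875947-2876246 is shown because this is the optimal peak of the family away from the tagged gene. Capitals mark CACCC, read here on the opposite strand as GGGTG, and the GA repeat on either strand.
klf-1 intron summit: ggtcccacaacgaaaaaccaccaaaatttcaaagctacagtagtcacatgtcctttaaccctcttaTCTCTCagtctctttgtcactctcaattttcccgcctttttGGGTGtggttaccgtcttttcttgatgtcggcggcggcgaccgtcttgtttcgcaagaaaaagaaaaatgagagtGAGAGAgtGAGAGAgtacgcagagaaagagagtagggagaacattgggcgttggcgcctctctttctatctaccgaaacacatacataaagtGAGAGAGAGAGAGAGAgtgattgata
No GGGCGG was in these 300 bases. A CACCC on the opposite strand started 43 bp before the summit, inside the longer form CCACACCC. That form was searched after the sequence had been seen. Within 100 bp it was at 1 of the 407 optimal summits, the klf-1 one, and at 0.333% of pooled summits. GAGAGA matched at 9 positions of the window, some of them overlapping in one GA run. Windows of 300 bp had at least 1 GAGAGA at 33.9% of optimal summits, 20.5% of pooled summits and 19.6% of protein-coding starts.

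The remaining 6 pooled summits of klf-1 were weaker. The one at 2879613, in a coding exon, had signal 60.3 and rank 2484. All 3 lists placed its summit at the same base, at rank 1904 in replicate 1 and 23786 in replicate 2. It lay in exon 6, which also encodes finger 1 (2879660 to 2879728). The others had pooled ranks from 6673 to 28822, and those at 2870938 and 2880455 overlapped no peak of either replicate. Apart from the intron, no pooled summit lay within 2 kb of the klf-1 start.

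sptf-3 (WBGene00012735), whose product activates cell death genes, had no optimal summit. It lies on chromosome I from 13360053 to 13366888 on the minus strand. Its strongest pooled summit was 2985 bp upstream, with signal 79.7, rank 704 and q-value 0.0505, and was at rank 1400 in replicate 1 and 2990 in replicate 2. A second was 4195 bp upstream, with signal 69.1 and rank 1352, at rank 2164 in replicate 1 and 588 in replicate 2. Both were seen in both replicates, and both lay nearer to noncoding RNA genes than to sptf-3. The first was 207 bp from the start of the ncRNA gene Y40B1A.5 and the second 264 bp from the snoRNA gene Y40B1A.6. No pooled summit lay inside sptf-3 itself. Of all protein-coding genes 6.08% had a stronger pooled peak.

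For sptf-1 (WBGene00009743, chromosome I from 10366621 to 10371697, plus strand) the replicates did not match at the strongest summit. This pooled summit, 3649 bp upstream, had signal 54.7 and rank 3883. It was at rank 900 in replicate 2 and had no overlapping peak in replicate 1. A summit in a coding exon, 2339 bp after the start, had rank 6210 and was in both replicates, at rank 24004 in replicate 1 and 2667 in replicate 2. The third pooled summit, 634 bp upstream, had rank 24872 and was in replicate 1 alone.

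klf-2 (WBGene00009998, chromosome V from 20685683 to 20688835, plus strand) had its strongest pooled summit in an intron, 508 bp before its second annotated start, with signal 55.1, rank 3723 and q-value 0.350. Replicate 2 had a peak there of rank 2585 and replicate 1 one of rank 18403. Its other pooled summits, at ranks 5964 and 17763, lay 293 and 578 bp from the start of srsx-35, a gene upstream. An optimal peak lay nearby but outside the region searched, 5.37 kb past the 3′ end of klf-2 in F53F8.7 (rank 130).

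klf-3 (WBGene00003480, chromosome II from 6616878 to 6622171, plus strand), which acts in fat metabolism, had the lowest strongest signal of the family in the pooled list and in replicate 2. In replicate 1 its strongest summit (rank 12836) was above those of sptf-1 (rank 17834) and klf-2 (rank 18403). Its promoter summit, less than 500 bp before the first start, had signal 45.2, rank 8216 and q-value 0.588. Replicate 1 had it at rank 12836 and replicate 2 at rank 28530. The other pooled summit, 3580 bp upstream, had rank 14390 and was in replicate 1 alone. Of all protein-coding genes 46.7% had a stronger pooled peak than klf-3, against 27.1% for sptf-1 and 26.2% for klf-2. The nearest optimal summit was 221 kb away.

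The windows of klf-2 and klf-3 are given for comparison with the stronger regions, as the plus strands of chrV:20686248-20686547 and chrII:6616493-6616792. Neither held a GC box, a CACCC or a GA repeat, so no letters are capitals.
klf-2 intron summit: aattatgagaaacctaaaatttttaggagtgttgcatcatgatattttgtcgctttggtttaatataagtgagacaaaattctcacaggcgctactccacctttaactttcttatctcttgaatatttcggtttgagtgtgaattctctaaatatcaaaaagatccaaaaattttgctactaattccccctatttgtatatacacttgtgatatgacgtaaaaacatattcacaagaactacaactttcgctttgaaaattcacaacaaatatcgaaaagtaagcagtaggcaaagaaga
klf-3 promoter summit: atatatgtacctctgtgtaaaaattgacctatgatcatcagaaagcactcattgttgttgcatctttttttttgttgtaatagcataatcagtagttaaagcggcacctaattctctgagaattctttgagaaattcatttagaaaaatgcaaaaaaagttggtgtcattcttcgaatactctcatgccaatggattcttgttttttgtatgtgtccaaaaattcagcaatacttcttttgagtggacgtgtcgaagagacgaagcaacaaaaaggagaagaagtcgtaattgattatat
Their GC contents were 31.3% and 33%. GC content was higher at another weak klf-2 summit, of rank 17763 (53.3%), than at the optimal summit in intron 2 of sptf-2 (40%).

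**Figure D5:**
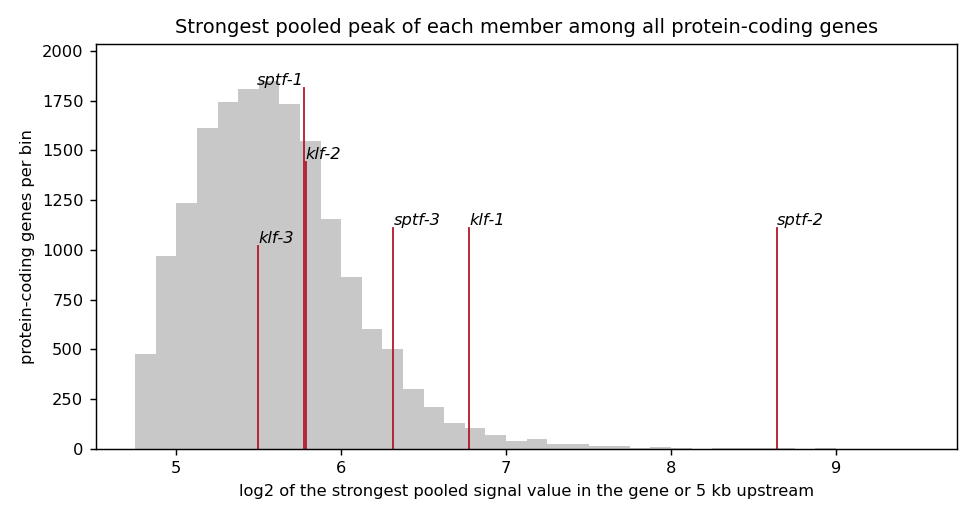
Strongest pooled signal in the gene or 5 kb upstream (x axis, log2 of the value on the caller's scale) for each protein-coding gene with a pooled summit (grey, number of genes per bin), with the 6 members as red lines, whose heights carry no meaning. The line of sptf-2 is far to the right (399), klf-1 (109.8) and sptf-3 (79.7) are in the upper tail, and sptf-1, klf-2 and klf-3 (54.7, 55.1 and 45.2) are in the body, whose median is 46.7. The regions differ in length between genes and no adjustment was made for it.

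Across the family, 22 pooled summits lay in 58.4 kb of gene and upstream sequence, 3.77 per 10 kb against 2.99 for the whole genome. By gene it was 6.98 for sptf-2, 6.45 for klf-1, 3.68 for klf-2, 2.98 for sptf-1, 1.94 for klf-3 and 1.69 for sptf-3. The last 3 genes were thus below the whole-genome value, which covers all sequence and not only genes and upstream regions. In replicate 1 the density over the members was 4.11 and in replicate 2 it was 4.45. By place, 11 of the pooled summits were upstream by more than 500 bp, 3 within 500 bp of a start, 4 in introns and 4 in exons. Of the 22, 15 (68.2%) overlapped a peak of both replicates, 5 of 1 replicate and 2 of neither, while 45.2% of all 30000 pooled peaks overlapped both. Some of the 15 overlapped the same replicate peak, as both upstream klf-2 peaks did in replicate 1 (rank 24782). With summits within 100 bp in both replicates the count was 8, and the share over all pooled peaks was not computed under that rule. In windows of 300 bp, GGGCGG was at 4 of the 22 (18.2%), at 3 distinct positions, against 7.63% of all pooled summits. The position in exon 3 of sptf-2 lies just before the codons of finger 2. That in exon 8 of klf-1, near the summit at 2880455, lies just before the codons of finger 3. Both are coding sequence between fingers that the members share. The third position is the one 133 bp after the sptf-2 summit at 8625506. The share counts sequence matches, and binding at them was not tested. CACCC was at 6 (27.3%), against 23.9% of all pooled summits. With so few summits, some of them overlapping, these shares describe the members and were not tested.

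Other C2H2 zinc finger regulators were looked up in the same way. Of a list of 35 such genes, 34 were found in the annotation under the listed name and 1, mua-1, was not. An optimal summit was at 1 of the 34 (2.94%), against 3.64% of all protein-coding genes. That gene was egrh-2, which encodes a protein related to the mammalian EGR factors. Its peak was 986 bp from the start, with signal 161, rank 44, rank 36 in replicate 1 and rank 68 in replicate 2, and it lay 845 bp from the start of lep-2. A pooled summit was at 31 of the 34, against 85.7% of all protein-coding genes. The genes egl-1 and pig-1, reported targets of SPTF-3 in cell death, had no optimal summit. Their strongest pooled summits were within 500 bp of a start, 100 bp and 175 bp away, at ranks 6735 and 4511. In replicate 1 the best ranks in these regions were 7702 for egl-1 and 10109 for pig-1. Replicate 2 had no summit at egl-1, and its best rank at pig-1 was 8192.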

How the data were processed

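Per the labels, chromatin of whole worms was sheared by sonication, fragments of 200 to 800 bp were taken, and 2 biological replicates of 1 group were sequenced. The deposited descriptions say that peaks of a replicate were called on its reads with a control, that pooled peaks used the reads of both, and that optimal peaks passed a cutoff of irreproducible discovery rate. No aligner or caller is named in those sources. The deposited signal value is a score, with a scale set by the caller, and the deposited −log10 q-value was read as the narrowPeak format defines it and printed as q. The deposited summit is an offset from the peak's start, mostly its middle.

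Coordinates are ce11 and 1-based. Summits were assigned to genes of the Ensembl annotation, with promoter meaning within 500 bp of any annotated start. Peaks counted as matched between lists with an overlap of 1 bp or more, and the nearest summit then gave the rank. Motifs were searched on both strands. The counting steps were checked on simulated summits and motifs with Python 3.11.15, numpy 2.4.6 and pandas 2.3.3. Members, gene list and motifs were chosen with earlier results of these data known. Peaks are not replicates, so values are descriptions with no test. The named genes are the members, the genes nearest their summits, list genes with an optimal summit, and egl-1 and pig-1. Neighbours in the sptf-2 stretch and genes with 3 optimal summits were named after their values were seen.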

Additional observations from a re-analysis of the deposited data

How the results depend on the processing

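No paired analysis was possible because the replicates form 1 group. The count of members with an optimal summit was 2 with 1 or 2 kb upstream, with any overlap and in the stronger part of the optimal list. It was 1 within 500 bp of a start and 1 without the tagged gene, an alternative chosen after seeing the data. It ranged from 1 to 2 with the 407 strongest peaks of single replicates, and klf-1 was the gene lost without replicate 2. The 22 pooled summits at members became 13 with 2 kb and 12 with 1 kb upstream. The 15 seen in both replicates became 8 with summits within 100 bp and 8 in the stronger 15000 of each list. The rank of the klf-1 intron peak was 128 without replicate 1 and 683 without replicate 2. The count of optimal summits at members with GGGCGG, 1 of 4, was 0 within 50 bp and 2 within 200 bp. Of all 34 alternatives, 24 stayed within 1.5 times the main count or density, or within the spread of the replicates' ranks. Depth is unknown, so weak peaks cannot be weighed by reads, and peaks of untagged worms were not analysed here.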
